A study of Mus musculus with 8 samples.

Results

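The genes described here are 10 transcripts that extracellular signal-regulated kinase (ERK) signalling is known to switch on, either as brakes on the pathway or as targets of ETS transcription factors: Dusp4, Dusp6, Spry1, Spry2, Spry4, Spred1, Spred2, Etv4, Etv5 and Phlda1. They were chosen by symbol, and all 10 were found among the 24421 gene symbols counted per library. Several were picked because their difference between the genotypes was already known from these same libraries, so their genotype difference is given as a description, and the fit's outcome for them supports nothing. The libraries are RNA sequencing of bone marrow-derived macrophages (BMDM), the macrophages that grow out of cultured mouse marrow. In 4 CKO libraries (replicates 2, 6, 7 and 8) the cells carried OPA1f/f and the Lyz2-Cre driver, and in 4 FLOX libraries (replicates 3, 4, 6 and 7) they carried OPA1f/f alone. Both groups therefore hold the floxed alleles of Opa1, whose product fuses inner mitochondrial membranes, and both were given interleukin 4 (IL-4) for 24 h. The CKO group differs from FLOX by the Cre insertion in the Lyz2 gene, which acts in myeloid cells, as well as by any deletion it makes, and the 2 cannot be told apart. The sources used here give no age, sex or number of mice behind each culture, so the spread between libraries may be technical.

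The libraries held 11764855 to 18939948 read pairs assigned to genes. Over all genes the FLOX libraries fell into pairs: the chi-square of counts per degree of freedom was 6.45 between replicates 3 and 6 and 4.51 between 4 and 7, against 15.6 to 27.8 across the pairs, and CKO replicate 2 stood at 7.42 to 9.63 from the other CKO libraries, which were at 2.45 to 3.05 from each other. Opa1 was at 100.1 ± 4.42 CPM (pairs of a gene per 1000000 assigned pairs, after scaling) in CKO libraries and 114 ± 11.6 CPM in FLOX libraries (SD, n = 4 each), and the counts do not resolve the floxed exons. The ranges of Opa1 overlapped and it was not called (log2 fold change -0.19, edgeR adjusted p = 0.0544). Lyz2, the driver's locus, was at 2030 ± 251 CPM in the CKO group and 7439 ± 597 CPM in the FLOX group. Macrophage markers summed to 7209 to 7772 CPM in CKO and 8017 to 8388 CPM in FLOX over 10 genes. All 10 were tested, of which Fcgr1 alone was called higher (log2 fold change 1.04). Called lower were 4, Csf1r (-0.42), Cd68 (-0.48), Mertk (-0.78) and Cd163 (-0.30). Of 10 islet markers, looked up because the extraction text names islets, 9 had 0 counts in every library. The 9 fibroblast and stromal markers, cells known for strong growth factor signalling, summed to 2.36 to 3.02 CPM in CKO and 1.78 to 2.27 CPM in FLOX, with Lum at 0 and 0 of them past the low-count filter. The 6 endothelial markers summed to 263 to 300.5 CPM in CKO and 340.2 to 425 CPM in FLOX, most of it Vwf, which fell (log2 fold change -0.57), whereas Pecam1 (0.68) and Kdr (0.61) rose, with Cldn5 at 0 and Cdh5 at most 0.264 CPM. The 9 neutrophil markers summed to 121 to 150.04 CPM in CKO and 218 to 314 CPM in FLOX, mostly Csf3r, with Elane at 0. Csf3r fell (-1.05), while 3 of the other 4 tested neutrophil markers, S100a9 (1.55), Ngp (1.89) and Ltf (1.75), rose at mean levels of at most 3.11 CPM in CKO and 1.03 CPM in FLOX. Ngp and Ltf, at most 0.486 CPM in FLOX, passed the filter through the CKO libraries, so a difference was built into their inclusion. In bulk RNA, fewer cells of a type and less RNA per cell cannot be told apart. The part of these markers in the values below was not tested.

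ERK is the last kinase of a cascade that runs from receptor tyrosine kinases through RAS, RAF and MEK. Once active it phosphorylates transcription factors, ETS proteins among them, and it limits itself by inducing genes whose products act back on the cascade. DUSP4 and DUSP6 remove the activating phosphates from mitogen-activated protein kinases. Sprouty proteins (Spry) and their SPRED relatives act further up, at the step from the receptor to RAF. ETV4 and ETV5 belong with ETV1 to the PEA3 subfamily of ETS factors, and in tumour cells their transcripts, together with several of the inhibitors above, serve as a readout of pathway activity. In macrophages the receptor for colony-stimulating factor 1 is the main receptor known to drive this cascade.

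By fold change Dusp6, Spred2 and Etv5 differed most between the genotypes, Spry2 and Phlda1 less, Spred1 less again (1.91-fold), and Dusp4 hardly at all. Spry1, Spry4 and Etv4 were at the edge of detection in both. Of the 10 genes 7 passed the low-count filter, and 6 of those were past the threshold by which all genes were called (edgeR's quasi-likelihood test, adjusted p under 0.05 over the whole table), on the side of CKO. Among all 11519 genes tested 23.8% were called higher, 21.6% were called lower and 45.4% were called either way, and since the genes were picked on this contrast nothing is read from their count. The same 6 were the ones whose CKO and FLOX ranges lay apart, as they did for 42.7% of all tested genes, 22.7% with CKO above FLOX. Scaling to library totals alone raised the median log2 fold change of all genes to 0.08, from -0.02 with the scaling used here, and split the calls into 3612 higher and 1556 lower in place of 2739 and 2492.

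**Figure D1:**
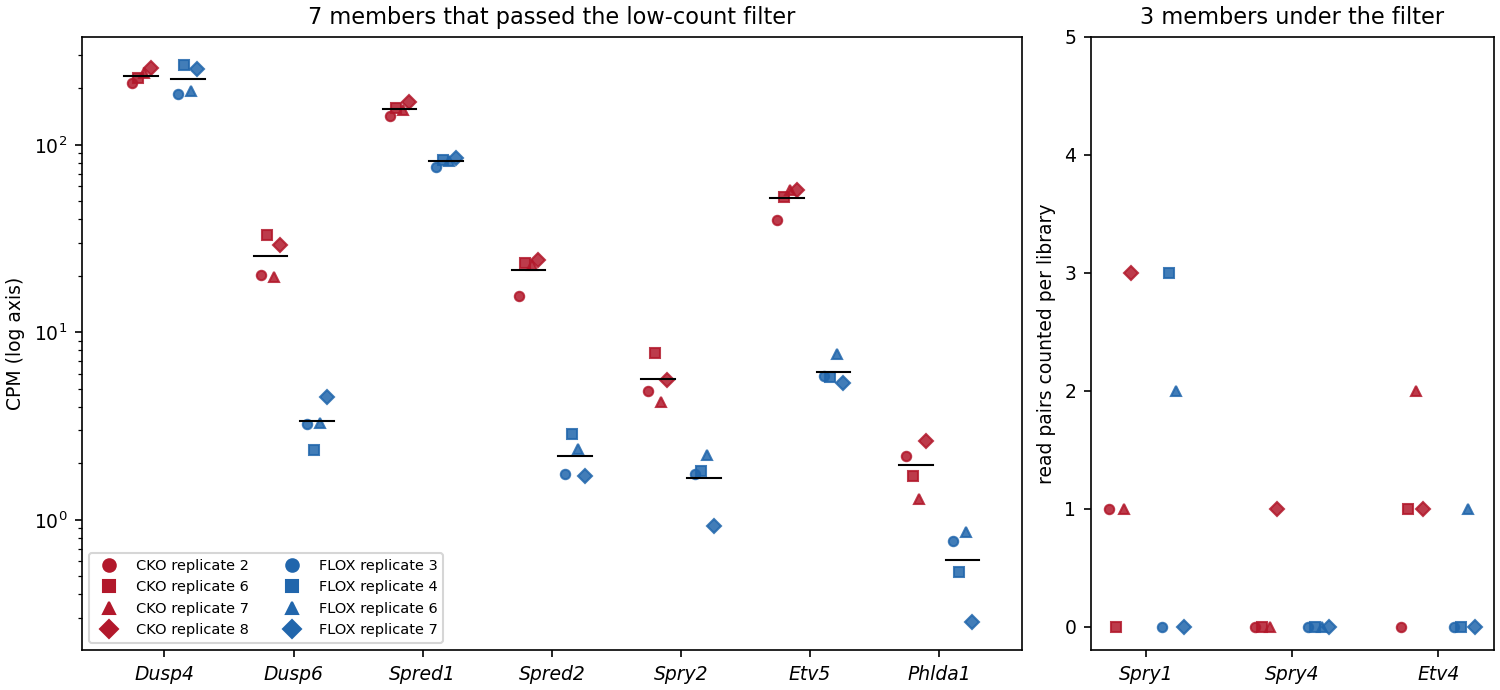
Level of each gene in every library, with CKO libraries in red and FLOX libraries in blue. The left panel gives CPM on a log axis with the group mean as a black bar, and the right panel gives raw read pairs for the 3 genes under the filter. Dusp4 overlaps between the groups at 186 to 268 CPM, whereas the 4 CKO libraries of Dusp6, Spred1, Spred2, Spry2, Etv5 and Phlda1 all sit above the 4 FLOX libraries, and no library holds more than 3 pairs of Spry1, Spry4 or Etv4.

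The 2 phosphatases stood far apart in their genotype difference. Dusp6 (ENSMUSG00000019960, chromosome 10, 99263231 to 99267489, plus strand, mm10) encodes a cytoplasmic phosphatase with a strong preference for ERK. It was counted at 20.1, 33.0, 19.6 and 29.2 CPM in CKO replicates 2, 6, 7 and 8, and at 3.23, 2.34, 3.29 and 4.54 CPM in FLOX replicates 3, 4, 6 and 7. The groups lay far apart, although CKO replicates 6 and 8 stood well above replicates 2 and 7. Its log2 fold change of CKO over FLOX was 2.92 (SE 0.22), a 7.58-fold difference with a 95% interval from 5.21 to 11.0.

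Dusp4 (ENSMUSG00000031530, chromosome 8, 34807297 to 34819894, plus strand) encodes a nuclear phosphatase that acts on ERK and on the stress-activated kinases. Its level was 212, 226, 240 and 256 CPM in CKO replicates 2, 6, 7 and 8, against 186, 268, 194 and 253 CPM in FLOX replicates 3, 4, 6 and 7. The CKO values lay inside the FLOX range, and the FLOX libraries split into a low pair (3 and 6) and a high pair (4 and 7), the same pairs as over all genes. The log2 fold change was 0.05 (SE 0.11), or 1.04-fold with a 95% interval from 0.858 to 1.26, which leaves room for a small change in either direction. The sign turned without FLOX replicate 3 (-0.03) and without FLOX replicate 6 (-0.01). Dusp4 also varied more among FLOX libraries (coefficient of variation 18.1%) than among CKO libraries (7.99%).

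Counting both phosphatases in the same library removes the scaling between libraries. For every 100 read pairs of Dusp4 there were 9.47, 14.6, 8.17 and 11.4 pairs of Dusp6 in the CKO libraries, against 1.73, 0.876, 1.69 and 1.80 pairs in the FLOX libraries. The mean was 10.9 ± 2.77 in CKO and 1.52 ± 0.435 in FLOX (SD, n = 4 each). Dusp4 had more read pairs than Dusp6 in all 8 libraries.

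The SPRED genes encode membrane-bound inhibitors that bring the RAS inactivator neurofibromin to the plasma membrane. Spred2 (ENSMUSG00000045671, chromosome 11, 19924375 to 20024026, plus strand) was at 15.6, 23.5, 22.9 and 24.4 CPM in CKO replicates 2, 6, 7 and 8, against 1.75, 2.87, 2.38 and 1.70 CPM in FLOX replicates 3, 4, 6 and 7. CKO replicate 2 was the lowest of its group, yet it stood far above every FLOX library. The log2 fold change of 3.31 (SE 0.18) was the highest of the 10 genes, 9.93-fold with a 95% interval from 7.27 to 13.5, and ranked 13 among the 11519 genes tested.

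Spred1 (ENSMUSG00000027351, chromosome 2, 117121374 to 117182279, plus strand) had far more read pairs. It was counted at 143, 157, 153 and 168 CPM in CKO replicates 2, 6, 7 and 8 and at 76.1, 83.3, 81.7 and 85.2 CPM in FLOX replicates 3, 4, 6 and 7. Its libraries agreed closely within each group, with a coefficient of variation of 6.74% in CKO and 4.83% in FLOX. The log2 fold change was 0.93 (SE 0.07), 1.91-fold with a 95% interval from 1.71 to 2.13. Within a library, 100 pairs of Spred1 came with 10.9, 15.0, 15.0 and 14.5 pairs of Spred2 in CKO, against 2.30, 3.45, 2.91 and 2.00 in FLOX. The pairs of Spred2 per 100 of Spred1 averaged 13.8 ± 1.97 in CKO and 2.67 ± 0.646 in FLOX (SD, n = 4 each), and every CKO ratio lay above every FLOX ratio. The third relative, Spred3, was not called (4.59 CPM in CKO and 4.25 CPM in FLOX, log2 fold change 0.13, edgeR adjusted p = 0.545).

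**Figure D2:**
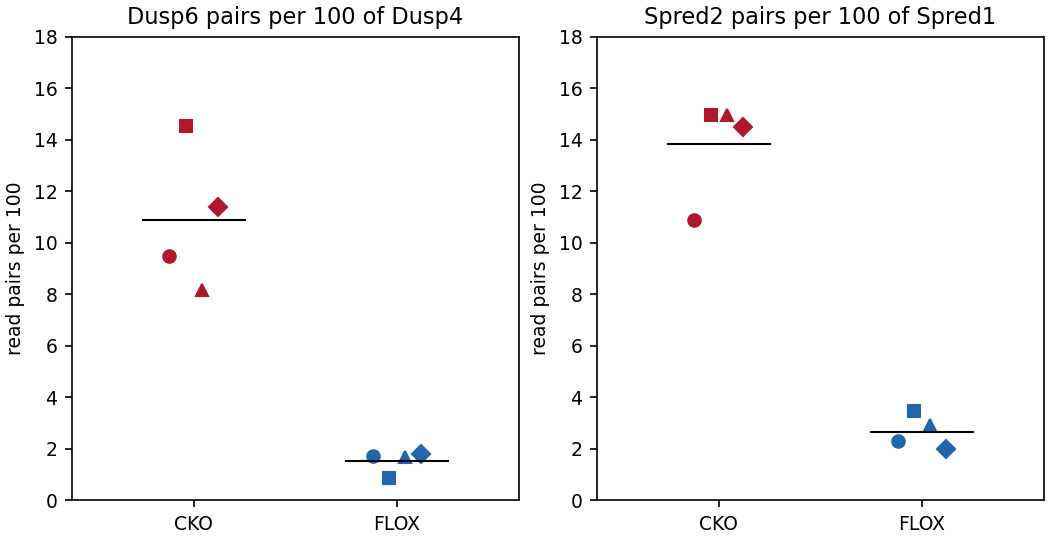
Read pairs of Dusp6 per 100 of Dusp4 (left) and of Spred2 per 100 of Spred1 (right) in each library, CKO in red and FLOX in blue, with group means as black bars and axes from 0. CKO libraries hold 8.17 to 14.6 pairs of Dusp6 and 10.9 to 15.0 pairs of Spred2, all above the FLOX libraries.

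Sprouty proteins are induced by growth factors and hold back RAS activation below receptor tyrosine kinases. Only Spry2 (ENSMUSG00000022114, chromosome 14, 105891947 to 105896819, minus strand) was measurable among the 3 Sprouty genes described here. It was at 4.86, 7.71, 4.25 and 5.59 CPM in CKO replicates 2, 6, 7 and 8, against 1.75, 1.82, 2.21 and 0.923 CPM in FLOX replicates 3, 4, 6 and 7. The ranges lay apart, but the FLOX values rest on 13 to 41 read pairs per library. The log2 fold change was 1.72 (SE 0.25), 3.28-fold with a 95% interval from 2.17 to 4.98.

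Spry1 had 1, 0, 1 and 3 read pairs in the CKO libraries and 0, 3, 2 and 0 in the FLOX libraries. With 5 pairs in each group the ratio of CKO to FLOX was 1.03, with a 95% counting interval from 0.238 to 4.49. Spry4 had 1 pair in CKO replicate 8 and 0 in the other 7 libraries, where 3 counts over a group would correspond to 0.0516 CPM in CKO and 0.0499 CPM in FLOX. Neither gene could be compared between the genotypes at this depth, and Spry3 had 0 counts throughout.

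Among the ETS factors, Etv5 (ENSMUSG00000013089, chromosome 16, 22381309 to 22439719, minus strand) was the abundant member. It was at 39.6, 52.6, 57.3 and 57.5 CPM in CKO replicates 2, 6, 7 and 8, against 5.82, 5.75, 7.61 and 5.39 CPM in FLOX replicates 3, 4, 6 and 7. CKO replicate 2 was again the lowest CKO library and FLOX replicate 6 the highest FLOX library, with a wide gap between them. The log2 fold change was 3.06 (SE 0.14), 8.35-fold with a 95% interval from 6.57 to 10.6. Etv4 had 0, 1, 2 and 1 read pairs in CKO and 0, 0, 1 and 0 in FLOX, a ratio of 4.13 with a counting interval from 0.409 to 204. Its level could not be told apart between the groups at this depth.

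Phlda1 (ENSMUSG00000020205, chromosome 10, 111506286 to 111508645, plus strand) encodes a pleckstrin homology-like protein that is induced by mitogens and restrains AKT signalling. Its level was 2.18, 1.71, 1.29 and 2.63 CPM in CKO replicates 2, 6, 7 and 8, against 0.771, 0.529, 0.864 and 0.284 CPM in FLOX replicates 3, 4, 6 and 7. The ranges lay apart by a small margin, on 4 to 16 read pairs per FLOX library. The log2 fold change was 1.61 (SE 0.32), 3.04-fold with a 95% interval from 1.76 to 5.25. Phlda1 passed the filter through the CKO libraries, since 4 of them but 2 of the FLOX libraries reached the filter's 0.688 CPM, so a difference was built into its inclusion. Reads of the antisense gene Gm28592, which overlaps it, may be counted with it because no source used here gives the strand setting.

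**Figure D3:**
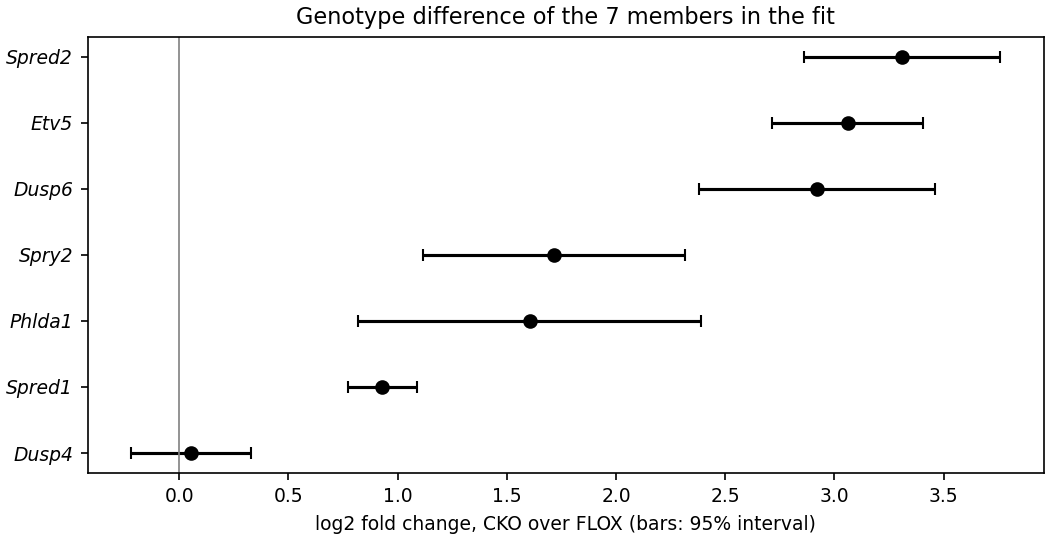
Log2 fold change of CKO over FLOX for the 7 genes in the fit, with 95% intervals as bars. Spred2 (3.31), Etv5 (3.06) and Dusp6 (2.92) form the upper group, Spry2 (1.72) and Phlda1 (1.61) the middle, Spred1 (0.93) lies below them, and the interval of Dusp4 (0.05) spans 0.

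To order the levels of different genes, CPM were divided by the kilobases of merged exons, which the read pair ratios above do not take into account. In CKO the order was Dusp4 (85.3 ± 6.82), Spred1 (22.9 ± 1.54), Etv5 (12.6 ± 2.05), Dusp6 (8.13 ± 2.13), Spred2 (4.68 ± 0.877), Spry2 (2.69 ± 0.722) and Phlda1 (0.886 ± 0.262; SD, n = 4 throughout). In FLOX it was Dusp4 (82.2 ± 14.9), Spred1 (12.0 ± 0.581), Etv5 (1.497 ± 0.243), Dusp6 (1.07 ± 0.289), Spry2 (0.803 ± 0.260), Spred2 (0.471 ± 0.121) and Phlda1 (0.278 ± 0.118). The first 4 places were the same in both groups, and Spred2 and Spry2 changed places. Ranges of neighbours overlapped for Etv5 and Dusp6 and for Spred2 and Spry2 in CKO, and for each pair of neighbours from Etv5 down to Phlda1 in FLOX. Over all 10 genes the summed level was 438 to 544 CPM in CKO and 276 to 364 CPM in FLOX. Without Dusp4, which hardly differed, it was 226 to 288 CPM in CKO and 89.4 to 98.2 CPM in FLOX. Most of that was Spred1, at 143 to 168 CPM in CKO and 76.1 to 85.2 CPM in FLOX. Since the genes were picked on this contrast, nothing is read from these sums.

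The libraries did not rank alike for every gene. Among the 7 genes in the fit, CKO replicate 8 was the highest CKO library for 5 and replicate 2 the lowest for 4, with replicate 7 the lowest for the other 3, Dusp6, Spry2 and Phlda1. In FLOX, replicate 6 was highest for 3 genes, and replicate 7 was lowest for 4 although it was highest for Dusp6 and Spred1. With CKO replicate 2 and FLOX replicate 6 left out together, an alternative chosen after the libraries had been compared, the log2 fold change was 3.51 for Spred2, 3.33 for Etv5, 3.03 for Dusp6, 1.99 for Spry2, 1.82 for Phlda1, 0.99 for Spred1 and 0.05 for Dusp4.

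Likeness of pattern was measured as the root mean square difference of gene-centred log2 CPM over the 8 libraries, across 10528 genes with a mean of at least 1 on that scale, and it is a description only. The measure includes the genotype difference on which several of the genes described were picked. Nothing is therefore read from how near those genes lie to each other. The gene nearest to Spred2 was Etv5 (0.23), followed by Ccnd2 (0.26) and Ly6a (0.29). Nearest to Etv5 were Abtb2 (0.16), Cdh1 (0.23) and Ly6a (0.23), with Spred2 in place 4. Dusp6 lay nearest to Pydc4 (0.28), Cdh1 (0.30) and Ly6a (0.32), with Etv5 in place 6. Spry2 lay nearest to Dscc1 (0.22), Raet1d (0.28) and Slamf9 (0.29), and Phlda1 to Dscc1 (0.21), Isg15 (0.32) and Lrr1 (0.33), with Spry2 in place 5. Spred1 had close neighbours in Spire1 (0.05), Gcnt1 (0.05) and Atp8b4 (0.06). Chd7 (0.03), Larp4 (0.04) and Fam210a (0.04) stood nearest to Dusp4, and the fold changes of those 3 were as small as its own (log2 0.08, 0.03 and 0.00). Pydc4, Ly6a and Raet1d have close relatives in the genome, among which reads may be split. Abtb2 and Pydc4 passed the filter through the CKO libraries, so a difference was built into their inclusion. They had 8 to 23 and 10 to 22 read pairs per FLOX library.

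Promoter windows of RefSeq (GRCm38.p6, the assembly of mm10), from 250 bases before to 50 after a transcript start, were found for 6 of the 10 genes, 7 windows in all because Etv5 has 2 starts. Shown are the windows of the 4 genes with the highest fold changes, Spred2, Etv5 (the upstream start), Dusp6 and Spry2, so that their letters can be read side by side, 5′ to 3′ on the gene's strand. Capitals mark CCGGAA, 1 form of the ETS site, on either strand, and other forms are not marked. The windows are chr11:19924192-19924491 (plus strand), chr16:22439521-22439820 (minus), chr10:99262981-99263280 (plus) and chr14:105896770-105897069 (minus).
Spred2: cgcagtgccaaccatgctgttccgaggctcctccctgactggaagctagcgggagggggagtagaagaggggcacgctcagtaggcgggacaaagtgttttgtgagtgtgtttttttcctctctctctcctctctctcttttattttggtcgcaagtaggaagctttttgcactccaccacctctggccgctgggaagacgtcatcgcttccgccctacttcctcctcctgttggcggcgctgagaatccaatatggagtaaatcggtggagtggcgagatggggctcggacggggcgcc
Etv5: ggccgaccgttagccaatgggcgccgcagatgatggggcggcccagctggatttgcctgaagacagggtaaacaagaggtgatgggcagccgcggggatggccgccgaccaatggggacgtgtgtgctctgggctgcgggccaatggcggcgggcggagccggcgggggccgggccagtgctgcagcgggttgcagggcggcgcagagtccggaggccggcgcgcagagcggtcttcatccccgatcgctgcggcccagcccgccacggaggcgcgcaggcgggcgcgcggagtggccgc
Dusp6: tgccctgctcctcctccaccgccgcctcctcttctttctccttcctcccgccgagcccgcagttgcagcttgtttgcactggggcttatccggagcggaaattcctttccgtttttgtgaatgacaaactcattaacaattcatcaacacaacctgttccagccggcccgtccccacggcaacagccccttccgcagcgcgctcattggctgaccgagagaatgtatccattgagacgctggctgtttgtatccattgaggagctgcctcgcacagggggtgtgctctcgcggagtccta
Spry2: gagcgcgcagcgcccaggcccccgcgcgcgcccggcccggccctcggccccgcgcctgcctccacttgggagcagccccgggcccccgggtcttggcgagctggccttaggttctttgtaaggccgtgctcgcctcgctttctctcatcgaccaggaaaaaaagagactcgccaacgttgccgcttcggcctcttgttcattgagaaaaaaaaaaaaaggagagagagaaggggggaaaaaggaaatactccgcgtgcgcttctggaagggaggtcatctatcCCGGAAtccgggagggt
The form CCGGAA occurred in 1 of the 7 windows, that of Spry2, beginning 34 bases into the transcript, against 14.9% of all 32841 windows and 28.2% of those of tested genes. Other forms of the ETS site were not searched for, so a window without CCGGAA may still hold one. The AP-1 motif TGANTCA was found in 0 of the 7 (5.11% for tested genes) and the cyclic AMP response element TGACGTCA in 0 (3.11%). The GC content was 57.0% for Spred2, 74.0% for the upstream Etv5 start, 57.3% for Dusp6 and 62.7% for Spry2, against a median of 60.7% over windows of tested genes. A match is a description of the letters, and the lack of one says only that they are not in these 300 bases.

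The other genes of the pathway were described by lists, with 7 lists and the median log2 fold change of -0.02 over all tested genes as background. Over all tested genes 45.4% were called, 23.8% higher and 21.6% lower. The share called was 57.1% for phosphatases, 44.4% for ETS factors, 65% for other ERK output genes and 52.6% for kinases and scaffolds. It was 40.9% for adaptors, 38.1% for other inhibitors and 65% for receptors and ligands. Of 8 other mitogen-activated protein kinase phosphatases 7 were tested, of which 3 rose and 1 fell, with a median of 0.38. Dusp7 (0.38, edgeR adjusted p = 0.00113), Dusp10 (0.55, 0.00924) and Dusp16 (0.38, 0.0163) rose. Dusp7 was at 60.1 ± 1.93 CPM in the CKO group and 46.0 ± 4.59 CPM in the FLOX group (SD, n = 4 each) and is, like Dusp6, a cytoplasmic ERK phosphatase. Dusp2 fell (-0.47, edgeR adjusted p = 0.035), but the call ended without CKO replicate 7 (edgeR adjusted p = 0.131), CKO replicate 8 (0.13) or FLOX replicate 7 (0.0801), and with libraries scaled to their totals. Dusp1 was not called (15.2 ± 2.17 CPM in CKO and 13.05 ± 4.04 CPM in FLOX). None of the 3 that rose changed by as much as 2-fold.

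The ETS factors held a second PEA3 member that was higher in CKO. Of 25 other ETS factors and ETS repressors 18 were tested, of which 5 rose and 3 fell, with a median of -0.06. Etv1 was at 16.9, 23.7, 24.2 and 26.3 CPM in CKO replicates 2, 6, 7 and 8, against 4.14, 5.90, 5.51 and 6.46 CPM in FLOX replicates 3, 4, 6 and 7, with no overlap. By edgeR this was a log2 fold change of 2.06 with an SE of 0.15 (adjusted p = 1.02e-06). Ets2, a direct ERK substrate, rose by 1.71 (SE 0.11, edgeR adjusted p = 3.8e-07), to 41.3 ± 6.41 CPM in CKO against 12.6 ± 0.879 CPM in FLOX (SD, n = 4 each). Ets1 (0.60, edgeR adjusted p = 0.000615) and Elk3 (0.34, edgeR adjusted p = 0.00221) rose less. The count that fell went to 1 without CKO replicate 2, 6, 7 or 8 or without FLOX replicate 4. Spi1, the lineage factor of macrophages, was not called (293 CPM in CKO and 323 CPM in FLOX), and neither was the repressor Cic, which in mouse and human holds down the PEA3 genes (log2 fold change -0.07, edgeR adjusted p = 0.430).

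Other genes known to follow ERK did not move as 1 group. Of 27 listed, 20 were tested, of which 9 rose and 4 fell, with a median of 0.03. Ccnd1, the gene of cyclin D1, stood at 266, 388, 374 and 405 CPM in CKO replicates 2, 6, 7 and 8, against 27.9, 24.9, 38.4 and 27.7 CPM in FLOX replicates 3, 4, 6 and 7 (log2 fold change 3.58, SE 0.17, edgeR adjusted p = 1.95e-07). Epha2, a receptor tyrosine kinase gene, had 52 to 114 read pairs per CKO library and 1 to 3 per FLOX library. The ratio of CKO to FLOX was 57.6, with a 95% counting interval from 27.7 to 144. Epha2 passed the filter through the CKO libraries, so a difference was built into its place among the 9 that rose. Plau, which encodes urokinase, rose by 2.18 (edgeR adjusted p = 1.8e-06), and Odc1, the ornithine decarboxylase gene, by 0.94 (edgeR adjusted p = 1.68e-06). The 9 that rose also included the FOS-family gene Fosl2 (0.34, edgeR adjusted p = 0.0158), whose ranges overlapped (79.9 to 102 CPM in CKO and 64.1 to 83.8 CPM in FLOX). Egr1 and Fos were not called: Egr1 averaged 9.74 CPM in CKO libraries and 10.2 CPM in FLOX libraries (edgeR adjusted p = 0.901), and Fos averaged 40.2 CPM in CKO libraries and 59.7 CPM in FLOX libraries (edgeR adjusted p = 0.375). Both varied widely among FLOX libraries, Egr1 from 5.75 to 17.1 CPM and Fos from 20.9 to 109 CPM. Their 95% intervals on the log2 scale, -0.92 to 0.79 for Egr1 and -1.78 to 0.62 for Fos, leave room for a change in either direction. Egr2 fell by 0.55 on the log2 scale (edgeR adjusted p = 0.000114).

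**Figure D4:**
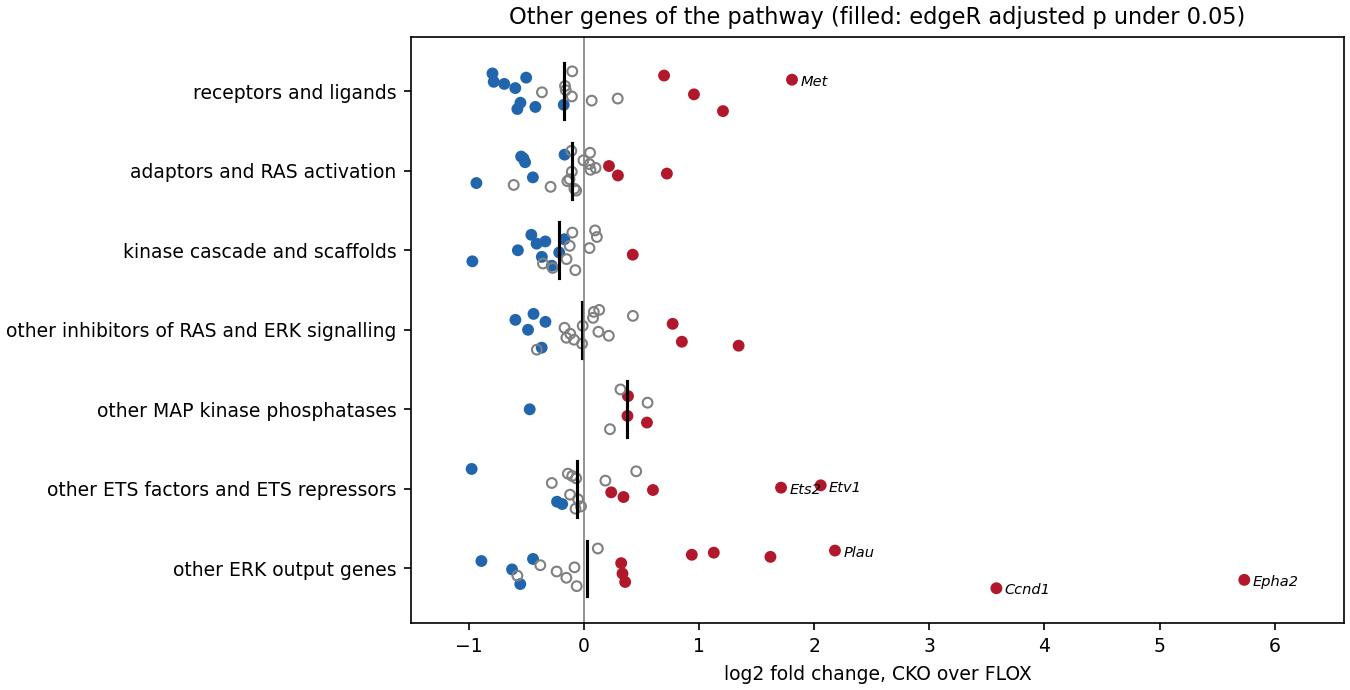
Log2 fold change of CKO over FLOX for every tested gene of the 7 other pathway lists, with filled points for genes called by edgeR (red higher, blue lower in CKO), open points for genes not called and a black bar at each list's median. The phosphatases lie mostly right of 0 with a median of 0.38, the kinases mostly left of 0 with a median of -0.21, and Epha2, Ccnd1, Plau and Etv1 lie farthest to the right.

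Among kinases and scaffolds of the cascade more genes fell than rose, beside 23.8% called higher and 21.6% called lower among all tested genes. Of 19 kinases and scaffolds, all tested, 1 rose and 9 fell, with a median of -0.21. The MEK1 gene Map2k1 rose, at 124 ± 0.878 CPM in the CKO group and 92.4 ± 5.97 CPM in the FLOX group (SD, n = 4 each; log2 fold change 0.42, edgeR adjusted p = 0.000103). The kinase genes Rps6ka2 (-0.46, edgeR adjusted p = 0.000916) and Mknk1 (-0.41, edgeR adjusted p = 0.000418), whose products act below ERK, and the scaffold gene Lamtor3 (-0.37, edgeR adjusted p = 0.000249) fell. Mapk3, which encodes ERK1, was not called (log2 fold change -0.12, edgeR adjusted p = 0.169).

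Of 25 adaptors and RAS activators 22 were tested, of which 3 rose and 6 fell, with a median of -0.11. The docking protein gene Gab1 (-0.93, edgeR adjusted p = 9.7e-05), the adaptor gene Grb2 (-0.44, edgeR adjusted p = 0.000167) and Rras2 (-0.55, edgeR adjusted p = 0.000626) fell. Of 24 other inhibitors of RAS and ERK signalling 21 were tested, of which 3 rose and 5 fell, with a median of -0.02. Dab2ip was among those that rose (log2 fold change 1.34, edgeR adjusted p = 0.00602). It passed the filter through the CKO libraries, with 4 to 10 read pairs per FLOX library, so a difference was built into its inclusion. Dok2, an adaptor that recruits a RAS inactivator, rose by 0.85 (edgeR adjusted p = 2.17e-06), whereas the RAS inactivator genes Rasa4 (-0.59, edgeR adjusted p = 1.18e-05) and Rasal3 (-0.44, edgeR adjusted p = 0.000183) and the ERK-binding Pea15a (-0.49, edgeR adjusted p = 0.000101) fell. Nf1, the gene of the neurofibromin that SPRED proteins recruit, was not called (50.9 CPM in CKO and 46.8 CPM in FLOX, edgeR adjusted p = 0.557).

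Of 35 receptors and ligands 20 were tested, of which 4 rose and 9 fell, with a median of -0.17. Axl, a receptor tyrosine kinase of macrophages that binds GAS6, rose to 189 ± 14.8 CPM in CKO against 81.6 ± 5.42 CPM in FLOX (SD, n = 4 each; log2 fold change 1.21, edgeR adjusted p = 2.33e-07). Met, the receptor of hepatocyte growth factor, rose at a low level, 2.64 ± 0.664 CPM in CKO and 0.759 ± 0.113 CPM in FLOX (log2 fold change 1.81, edgeR adjusted p = 7.53e-05). Met passed the filter through the CKO libraries, with 10 to 12 read pairs per FLOX library, so a difference was built into its inclusion. Csf1r, the gene of the receptor for colony-stimulating factor 1, fell to 1737 ± 185 CPM in CKO against 2327 ± 44.2 CPM in FLOX (SD, n = 4 each; log2 fold change -0.42, edgeR adjusted p = 0.000648). The receptor gene Mertk fell (-0.78, edgeR adjusted p = 0.000282). Of the growth factor genes, Csf1 (-0.58, edgeR adjusted p = 5.85e-05), Pdgfa (-0.50, 0.000497) and Pdgfc (-0.79, 2.72e-05) fell. Pdgfb rose (0.70, edgeR adjusted p = 0.00125), and so did Hbegf (0.96, 0.0445), whose ranges overlapped. Of the 15 not tested, Areg, Ereg and Fgfr4 had 0 counts in every library.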

How the data were processed

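RNA of 8 libraries was sequenced as paired-end reads, and per the submitters' processing notes HISAT2 2.0.5 made the alignments (genome build mm10) and HTSeq the counts. The deposited files hold raw counts, the whole number of read pairs for each gene symbol. HTSeq's classes of unassigned pairs were left out of library sizes and tests, and 66.3% to 71.7% of pairs were assigned. No source used here gives the annotation or the strand setting. No 2 libraries of a group agreed within sampling noise (chi-square over its degrees of freedom, 2.45 to 27.8), so all 8 were kept.

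Counts were fitted in R 4.3.3 with edgeR 4.0.16 (filterByExpr with a minimum count of 10, TMM factors, robust quasi-likelihood F test), CKO against FLOX, over all 11519 genes kept, with Benjamini-Hochberg adjustment over all of them and calls at 0.05. Standard errors are the log2 fold change over the square root of F, 95% intervals use 6 degrees of freedom, and counting intervals of low genes are exact (Clopper-Pearson) and cover counting error only. The fit was checked on simulated counts. Positions and exon lengths are from GENCODE M21, the same assembly as mm10. Alternatives were other scalings and filters, DESeq2 1.42.0, limma-voom (limma 3.58.1), the 20 most abundant genes removed, each library left out, and the replicate number as a block.

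The genes described, the lists and the rule for named genes were chosen with earlier results of these data known. The rule names the 10 genes, Opa1 and Lyz2, up to 4 called genes of smallest p per list, the 3 genes nearest to each, and marker genes needed to describe a list; some genes that it or a list holds are not reported here. Spred3, Spry3, Dab2ip, Dusp1, Spi1, Cic, Csf1r, Egr1, Egr2, Fos, Fosl2, Mapk3, Nf1, Mertk, Pdgfa, Pdgfb, Hbegf, Areg, Ereg and Fgfr4 were named after their values were seen. The calls of Cd68, Cd163, Dab2ip, Fcgr1, Mertk, Pdgfa, Pdgfb and Hbegf were not followed under the alternatives.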

Additional observations from a re-analysis of the deposited data

Results flagged for a closer look

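Among 111 sets of 4 libraries examined for 56 genes, 8 held a library farther from the rest than Dixon's criterion allows (0.829 of the range), where chance flags about 1 in 20. A single library stood apart for these genes, and 4 of them had CKO replicate 2 apart from the other CKO libraries. In CKO replicate 2, Pea15a was high (323 CPM, against 282 to 286 CPM in the other CKO libraries), and Odc1 (57.2 CPM, against 68.2 to 69.4), Plau (56.1 CPM, against 88.7 to 94.1) and Cdh1 (33.0 CPM, against 43.8 to 44.0) were low. Raet1d was low in CKO replicate 7 (3.21 CPM, against 3.77 to 3.89). Gab1 was high in FLOX replicate 7 (12.8 CPM, against 9.89 to 10.2). Spry4 in CKO replicate 8 (0.0674 CPM) and Etv4 in FLOX replicate 6 (0.0540 CPM) each rest on 1 read pair, with 0 in the rest of their groups.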

How the results depend on the processing

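Under the 18 alternatives the log2 fold changes of the genes described, which were picked on this contrast, were 3.22 to 3.51 for Spred2, 3.00 to 3.33 for Etv5, 2.74 to 3.09 for Dusp6, 1.52 to 1.99 for Spry2, 1.36 to 1.85 for Phlda1 and 0.89 to 1.03 for Spred1 and -0.03 to 0.16 for Dusp4. The 28 list genes that the rule names kept their direction throughout, and 7 of 504 calls of theirs were lost. With library totals as the only scaling, 1556 genes were called lower, the higher counts went to 5 for adaptors, 3 for kinases and 5 for other inhibitors, and the lower counts went to 1 for ETS factors and 0 for phosphatases; the cause was not tested beyond the shift of all genes. With the replicate number as a block, which leaves 1 residual degree of freedom, 3503 genes were called, 1518 of them lower, and the counts went to 1 higher for adaptors and 1 higher and 0 lower for phosphatases, ending the calls of Dusp2, Dusp10 and Dusp16 at log2 fold changes of -0.50, 0.57 and 0.39. Only numbers 6 and 7 are shared by the groups, and deviations of libraries sharing a number correlated at 0.14 and -0.07, so the numbers were not taken as pairs. Leaving out 1 library at a time gave 4273 to 5210 calls, 1 to 4 ETS factors lower and 0 to 1 phosphatases lower. A prior count of 0.5 put Cdh1 (0.31) nearest to Dusp6 in place of Pydc4, and among the 3 nearest put Spry2 in place of Isg15 for Phlda1 and Ccl12 in place of Slamf9 for Spry2. With that prior count Abtb2 was still nearest to Etv5, at 0.22 in place of 0.16. Promoter windows of 250 bases left the 3 motif counts as they were. Depth limits Spry1, Spry4, Etv4, Phlda1 and Epha2.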
